A study of Mus musculus with 6 samples.

Results

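The 9 genes described here encode the receptors through which nerves and released ATP drive tear secretion: the muscarinic receptors Chrm1 and Chrm3, the α1-adrenergic receptors Adra1a, Adra1b and Adra1d, the β1-adrenergic receptor Adrb1, the VIP receptors Vipr1 and Vipr2, and the ATP-gated channel P2rx7. They were chosen by gene symbol from the 55401 genes of the count table, and each symbol matched 1 Ensembl identifier. RNA came from 3 lacrimal gland samples of NOD/Ltj mice and 3 of ICR mice, the labelled control, with no treatment named in either group. NOD/Ltj mice are inbred and develop autoimmune disease that reaches the tear and salivary glands, and ICR is an outbred stock. The strains differ throughout the genome, so a difference between them belongs to no single gene. The labels give neither age nor sex, and do not say whether each sample came from a separate animal or from pooled glands, so a p-value here reflects spread among the samples as labelled, which may be partly technical.

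Parasympathetic nerves of the lacrimal gland release acetylcholine and VIP, and sympathetic nerves release noradrenaline. Muscarinic and α1-adrenergic receptors couple to Gq proteins, which raise cytosolic calcium through phospholipase C and IP3 receptors. VIP receptors and β-adrenergic receptors couple to Gs and raise cAMP, and both routes end in exocytosis of tear proteins and release of fluid. P2rx7 admits calcium when extracellular ATP binds it. It acts on protein secretion in rat lacrimal acinar cells, and macrophages and T cells also use it.

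The libraries held 62318534 to 64000969 estimated counts in NOD/Ltj and 58426580 to 76554340 in ICR. How many counts 1 sequenced fragment is worth is not stated. Of the values from 1 to 40, 30.4 to 31.7% were multiples of 4, where even spacing gives 25%, so a worth of 4 counts per fragment was assumed for counting errors and limits. Acinar cell content was described with 10 markers, all of which were detected and tested. Their summed level was 5410 to 6970 CPM in NOD/Ltj and 5870 to 9650 CPM in ICR (CPM is the count relative to the TMM-scaled library size). Whether these markers tell lacrimal from salivary acinar cells was not tested. Salivary gland genes reached 1990 CPM in NOD/Ltj 2 and 11500 CPM in ICR 3, against 44.8 to 67.4 CPM in the other NOD/Ltj libraries and 555 to 1130 CPM in the other ICR libraries. ICR 3 also held 101 CPM of skeletal muscle genes, where the other 5 libraries held at most 4.40 CPM. ICR 1 had the highest sums of macrophage genes (263 CPM) and adipocyte genes (59.8 CPM). T cell markers summed to 29.0 to 89.6 CPM in NOD/Ltj and 2.86 to 3.20 CPM in ICR, with 6 of 9 called higher, and B cell markers to 113 to 458 CPM in NOD/Ltj and 10.5 to 21.4 CPM in ICR, with 6 of 8 called higher.

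The comparison asked whether the transcripts of these receptors differ between NOD/Ltj and the control stock. None of the 9 receptors was called higher or lower in NOD/Ltj by edgeR's quasi-likelihood test at an adjusted p under 0.05, where 2.24% of the 18537 genes tested were called (1.88% higher and 0.361% lower). DESeq2 and limma-voom also called 0 of the 9. The only receptor with an unadjusted p under 0.05 was Vipr1, against 13.1% of all genes tested. Vipr1 was also the only one whose groups did not overlap, as in 20.0% of all genes tested. Of the 9 log2 fold changes 8 were negative, as were 9826 of all 18537 genes tested. The median of the 9 was −0.23, beside −0.03 over all genes tested. Only Vipr1 kept its sign in every alternative analysis given below.

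**Figure D1:**
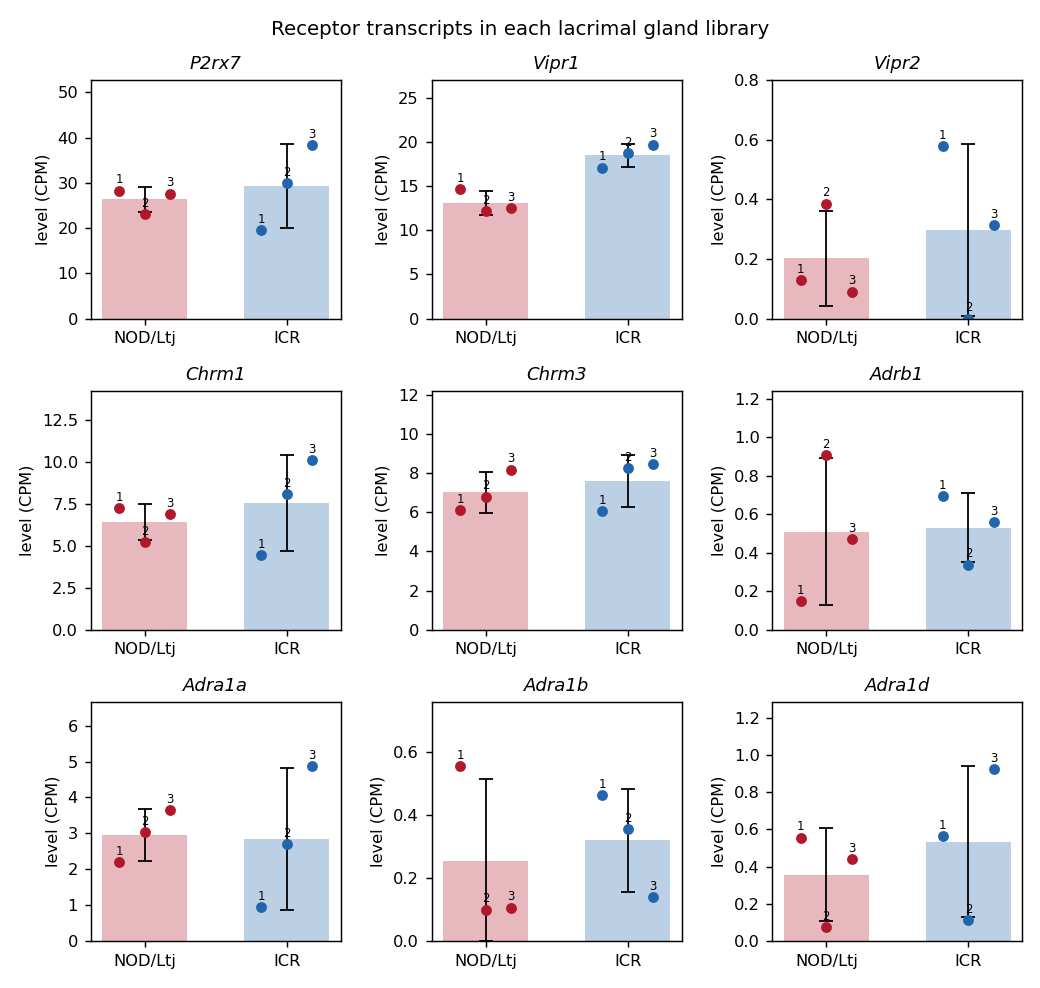
Level of each receptor transcript (CPM, from 0) in the 3 NOD/Ltj libraries (red) and the 3 ICR libraries (blue). Points are libraries with their replicate number, bars are means and error bars are 1 SD, cut at 0. The Vipr1 points of NOD/Ltj (12.2 to 14.7 CPM) all sit below those of ICR (17.1 to 19.7 CPM), and the points of the other 8 receptors overlap.

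The receptors spanned a wide range of levels. To compare genes, levels were divided by the length of the merged annotated exons, which lowers the value of a gene with long exons that the gland does not use. P2rx7 was the most abundant, at 4.41 ± 0.475 CPM per kilobase in NOD/Ltj and 4.91 ± 1.57 in ICR (SD, n = 3 each). Vipr1 came next with 2.27 ± 0.238 CPM per kilobase in NOD/Ltj and 3.19 ± 0.231 in ICR, then Chrm3 with 1.12 ± 0.168 and Chrm1 with 0.992 ± 0.165 in NOD/Ltj, against 1.22 ± 0.214 and 1.16 ± 0.443 in ICR (SD, n = 3 each). Adra1a followed at 0.338 ± 0.0843 CPM per kilobase in NOD/Ltj and 0.325 ± 0.226 in ICR (SD, n = 3 each). Adra1d, Adrb1, Adra1b and Vipr2 were the lowest, from 0.188 down to 0.0453 CPM per kilobase in NOD/Ltj and from 0.281 down to 0.0667 in ICR. The order of the 9 means was the same in both strains. Several neighbours were not separated by their spread: the ranges of mean ± SD overlapped for Chrm3 and Chrm1 and for every neighbouring pair from Adra1a down in both strains, and for P2rx7 and Vipr1 in ICR.

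**Figure D2:**
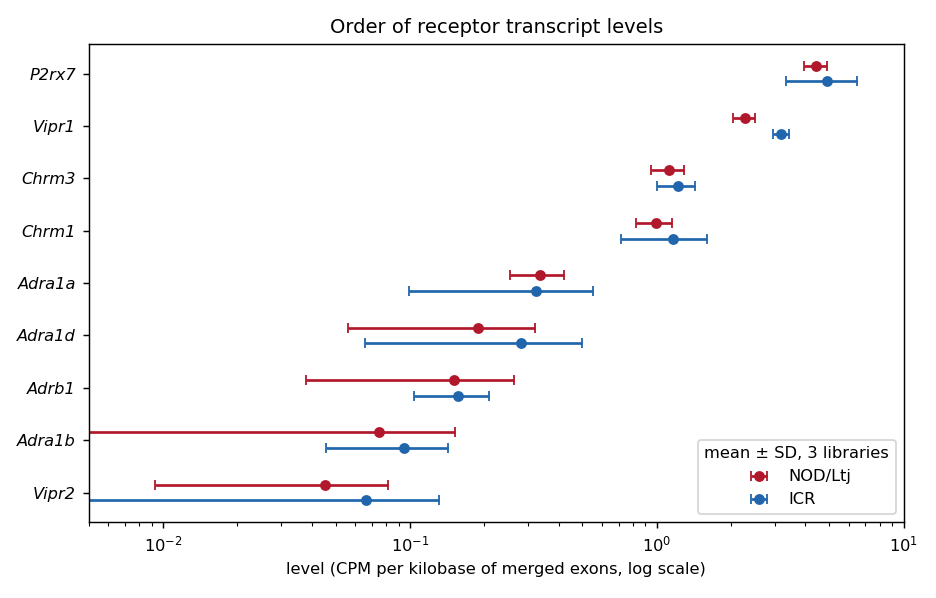
Mean level of each receptor per kilobase of merged exons (CPM per kilobase, log scale), NOD/Ltj in red above ICR in blue, with 1 SD over 3 libraries; a bar that reaches the left edge continues below it. P2rx7 stands at 4.41 in NOD/Ltj and 4.91 in ICR, and Vipr2 at 0.0453 in NOD/Ltj and 0.0667 in ICR.

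Chrm3 encodes the M3 receptor, the main muscarinic receptor of lacrimal acinar cells. It had 6.11, 6.80 and 8.18 CPM in NOD/Ltj 1 to 3 and 6.07, 8.27 and 8.48 CPM in ICR 1 to 3, from 330 to 546 counts. The groups overlapped over nearly their whole range. The fitted log2 fold change of NOD/Ltj over ICR was −0.11 ± 0.23 (SE, edgeR adjusted p = 0.902), with a 95% interval of −0.64 to 0.41.

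Chrm1 encodes the M1 receptor, which also couples to Gq. It had 7.22, 5.22 and 6.86 CPM in NOD/Ltj 1 to 3 and 4.43, 8.08 and 10.1 CPM in ICR 1 to 3, so the ICR libraries held both the lowest and the highest value. Its log2 fold change was −0.23 ± 0.32 (SE, edgeR adjusted p = 0.848), with a 95% interval of −0.98 to 0.53. It was −0.52 (adjusted p = 0.305) without ICR 1 and 0.04 (adjusted p = 0.978) without ICR 3. The annotated small gene Gm22820 shares 329 exon bases with Chrm1 on the opposite strand and had 0 counts in every library. Per kilobase, Chrm1 stood at 1.14, 0.740 and 0.809 times Chrm3 in NOD/Ltj 1 to 3 and at 0.705, 0.941 and 1.15 times in ICR 1 to 3, so neither subtype led in all libraries of a strain.

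The 3 other muscarinic genes lay at or near the counting limit. Chrm2, the M2 receptor known from heart and smooth muscle, had 8, 3 and 14 counts in NOD/Ltj and 10, 18 and 14 in ICR. Chrm4 had 0 to 16 counts in NOD/Ltj and 8 to 17 in ICR. Chrm5 had 0 counts in all 6 libraries, which allows up to 12 counts per library (3 fragments at the assumed 4 counts each, or 0.157 to 0.205 CPM before scaling, for counting error only). Chrm1 and Chrm3 together made up 95.3% ± 3.91 of the muscarinic receptor level per kilobase in NOD/Ltj and 93.5% ± 1.10 in ICR (SD, n = 3 each).

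Adra1a encodes the α1A receptor and was the highest of the 3 α1 genes by mean. It had 118, 243 and 241 counts in NOD/Ltj 1 to 3 (2.19, 3.03 and 3.65 CPM) and 65, 167 and 279 counts in ICR 1 to 3 (0.939, 2.70 and 4.88 CPM). The ICR libraries spread more widely and enclosed the NOD/Ltj values. The log2 fold change was 0.06 ± 0.56 (SE, edgeR adjusted p = 0.982), with a 95% interval of −1.24 to 1.36. It was −0.37 without ICR 1 (adjusted p = 0.692) and 0.70 without ICR 3 (adjusted p = 0.620).

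Adra1d encodes the α1D receptor, the subtype tied to protein secretion in the rat lacrimal gland. It had 30, 6 and 29 counts in NOD/Ltj 1 to 3 and 39, 7 and 53 counts in ICR 1 to 3. Adra1b, the α1B receptor, had 30, 8 and 7 counts in NOD/Ltj 1 to 3 and 32, 22 and 8 counts in ICR 1 to 3. Both were seen in every library, but at 12 counts or fewer in 1 NOD/Ltj and 1 ICR library for Adra1d and in 2 NOD/Ltj and 1 ICR libraries for Adra1b. Their log2 fold changes were −0.59 ± 0.94 and −0.35 ± 0.89 (SE, edgeR adjusted p = 0.870 and 0.927). The 95% intervals ran from −2.78 to 1.60 for Adra1d and from −2.43 to 1.73 for Adra1b, so differences well over 2-fold in either direction were not excluded. Gm14285, which shares 147 exon bases with Adra1d on the opposite strand, had 0 counts in every library.

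The mix of α1 subtypes was therefore poorly fixed. Per kilobase, Adra1a took 35.4, 83.4 and 61.4% of the α1 level in NOD/Ltj 1 to 3 and 19.9, 65.2 and 51.4% in ICR 1 to 3. Adra1d took 41.4, 9.47 and 34.0% in NOD/Ltj and 54.8, 12.6 and 44.8% in ICR. In NOD/Ltj 1 and ICR 1 the short Adra1d transcript exceeded Adra1a per kilobase although it had fewer counts.

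Adrb1 encodes the β1 receptor, which couples to Gs. It had 8, 73 and 31 counts in NOD/Ltj 1 to 3 (0.148, 0.909 and 0.470 CPM) and 48, 21 and 32 counts in ICR 1 to 3 (0.693, 0.339 and 0.559 CPM). The NOD/Ltj libraries held both extremes. The log2 fold change was −0.05 ± 0.71 (SE, edgeR adjusted p = 0.987), with a 95% interval of −1.70 to 1.60.

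Vipr1 encodes VPAC1, the receptor for VIP and for the related peptide PACAP. It had 14.7, 12.2 and 12.5 CPM in NOD/Ltj 1 to 3 (796, 980 and 827 counts) and 17.1, 18.7 and 19.7 CPM in ICR 1 to 3 (1181, 1155 and 1128 counts). Every NOD/Ltj library lay below every ICR library. The fitted level in NOD/Ltj was 0.712 times that in ICR, with a 95% interval of 0.549 to 0.924 times and an unadjusted p of 0.0172 by edgeR's quasi-likelihood test. After adjustment over all genes the difference did not pass (log2 fold change −0.49 ± 0.16 SE, adjusted p = 0.239), nor did it by DESeq2 (adjusted p = 0.149) or limma-voom (adjusted p = 0.239).

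Vipr1 kept a negative log2 fold change in each of the 16 alternative analyses, from −0.58 to −0.16, with adjusted p from 0.121 to 0.845. The value nearest to 0 came from scaling libraries to 10 epithelial genes, which moved the median of all genes by 0.33 on the log2 scale. All 10 epithelial genes had negative log2 fold changes with the standard scaling, with a median of −0.38 and none called. They summed to 699 to 771 CPM in NOD/Ltj and to 1160, 784 and 744 CPM in ICR 1 to 3. Only ICR 1 stood far above the NOD/Ltj range. The part of epithelial content in the Vipr1 difference was not tested. In whole tissue, fewer cells of a type and less RNA per cell cannot be told apart, here or for any other receptor.

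Vipr2 encodes VPAC2 and was barely detected. It had 7, 31 and 6 counts in NOD/Ltj 1 to 3 and 40, 0 and 18 counts in ICR 1 to 3. The log2 fold change of −0.54 ± 1.27 (SE, edgeR adjusted p = 0.920) had a 95% interval of −3.50 to 2.42 and turned to 0.38 without ICR 1. Of the summed level of both VIP receptors per kilobase, Vipr1 made up 96.1 to 99.1% in NOD/Ltj and 95.8 to 98.0% in ICR 1 and ICR 3, while ICR 2 had no Vipr2 count. Adcyap1r1, the receptor that prefers PACAP, was better represented than Vipr2, with 6.20, 7.08 and 7.62 CPM in NOD/Ltj and 4.15, 5.96 and 6.33 CPM in ICR (log2 fold change 0.35, edgeR adjusted p = 0.626; named after its values were seen).

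P2rx7 had the highest counts of the 9 receptors. It stood at 28.3, 23.1 and 27.6 CPM in NOD/Ltj 1 to 3 (1529, 1853 and 1822 counts) and at 19.6, 30.0 and 38.3 CPM in ICR 1 to 3 (1360, 1857 and 2192 counts). The 3 NOD/Ltj libraries lay between the lowest and the highest ICR library. The log2 fold change was −0.16 ± 0.25 (SE, edgeR adjusted p = 0.874), with a 95% interval of −0.75 to 0.44. It was −0.39 without ICR 1 (adjusted p = 0.319) and 0.08 without ICR 3 (adjusted p = 0.917). T cell markers were 9 of 9 higher at an edgeR unadjusted p under 0.05, against 8.0% of all genes tested. Their median log2 fold change was 4.28. Within NOD/Ltj, P2rx7 was lowest in NOD/Ltj 2, which had the highest T cell, B cell and salivary gland sums. The part of lymphocyte RNA in the P2rx7 values was not tested. Mir8115, which shares 119 exon bases with P2rx7, had 1 count in each library.

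P2rx4, another ATP-gated channel, exceeded P2rx7 in every library. P2rx7 per kilobase stood at 0.344, 0.364 and 0.425 times P2rx4 in NOD/Ltj 1 to 3 and at 0.437, 0.349 and 0.664 times in ICR 1 to 3. P2rx4 itself averaged 82.6 ± 12.3 CPM in NOD/Ltj and 74.0 ± 24.7 CPM in ICR (SD, n = 3 each, edgeR adjusted p = 0.880; named after its values were seen).

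**Figure D3:**
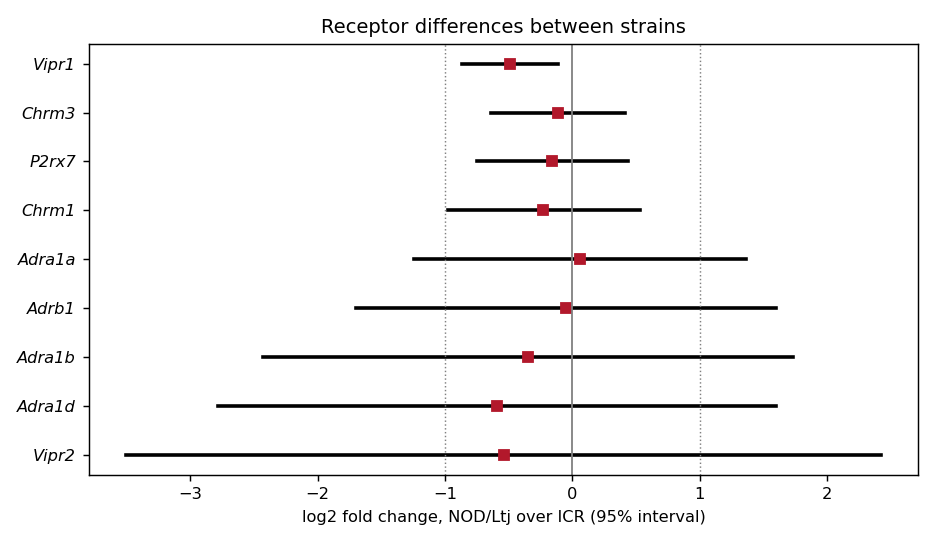
Log2 fold change of NOD/Ltj over ICR for each receptor (square) with its 95% interval (line); dotted lines mark a 2-fold difference. The intervals of Vipr1, Chrm3, P2rx7 and Chrm1 lie within the dotted lines, and those of the 5 scarcer receptors cross both.

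The precision followed the counts only in part. P2rx7 had the most counts, but its SE (0.25) was wider than those of Vipr1 (0.16) and Chrm3 (0.23). At the assumed 4 counts per fragment, which most low values do not show, P2rx7 would rest on 340 to 548 fragments per library, with a relative counting error of 4.27 to 5.42%. Vipr1 would rest on 199 to 295 fragments (5.82 to 7.09%). Chrm3 and Chrm1 would rest on 76.8 to 144.5 fragments, with a relative counting error between 8.32 and 11.4%. Vipr2, Adra1b, Adra1d and Adrb1 would rest on at most 18.2 fragments in any library. The fitted intervals rest on the spread between libraries and not on this factor. For Vipr1, Chrm3, P2rx7 and Chrm1 the 95% interval of the difference excluded a 2-fold change in both directions, with Chrm1 the closest to it at a lower bound of 0.506-fold. For the other 5 receptors it did not.

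**Figure D4:**
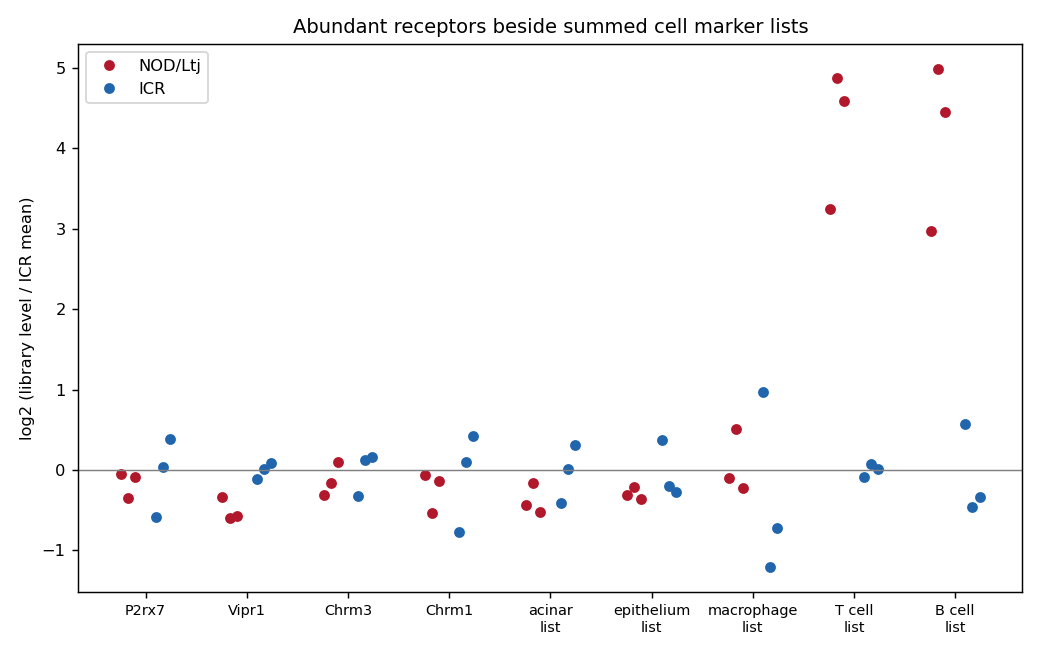
Log2 ratio of each library's level to the ICR mean, for the 4 most abundant receptors and for the summed CPM of 5 cell marker lists; NOD/Ltj in red to the left of ICR in blue. The T cell list (29.0 to 89.6 CPM in NOD/Ltj, 2.86 to 3.20 CPM in ICR) and the B cell list separate the strains, and of the receptors only the points of Vipr1 do not overlap.

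Among the 5 receptors with a mean of at least 1 CPM, P2rx7 and Chrm1 had the most similar pattern over the 6 libraries (Pearson r = 0.993 of log2 CPM, a description over libraries that share the 2 strains). Both were lowest in ICR 1 and highest in ICR 3. Adra1a had r = 0.809 with P2rx7 and 0.763 with Chrm1, and Chrm3 had r from 0.727 to 0.784 with these 3. Vipr1 followed none of them closely, with r between −0.0665 and 0.479.

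Many other genes shared these patterns. Of about 9280 genes with a symbol and a mean of at least 5 CPM, 125 reached r = 0.95 with Chrm1, led by Ciapin1, Klhl41 and Dcaf8 (0.993 each). For P2rx7 there were 110, led by Cep85 (0.997), Tnrc6a and Trim39, and for Adra1a 76, led by Dgkq (0.996), Cep63 and Plec. Vipr1 had 40, led by Cd59a (0.993), Gm2606 and Fastkd2. Chrm3 had 11, led by Rabggta (0.988), Atg9a and Ing1.

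Downstream of the receptors, the wider list of other receptors, G proteins, effectors, regulators and transmitter genes held 125 genes, of which 103 were tested. Of these, 4 were called higher (3.88%, against 1.88% of all genes tested) and 0 lower, and the unadjusted p was under 0.05 for 18 genes with positive and 11 with negative log2 fold changes (8.0% and 5.05% of all genes tested). DESeq2 called 11 higher and 4 lower, where it called 4.87% higher and 1.55% lower of the 18440 genes to which it gave an adjusted p. Limma-voom called 1 higher and 0 lower, against 0.664% higher and 0.108% lower of all genes tested. The median log2 fold change of the 103 was −0.06, close to the −0.03 of all genes tested.

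**Figure D5:**
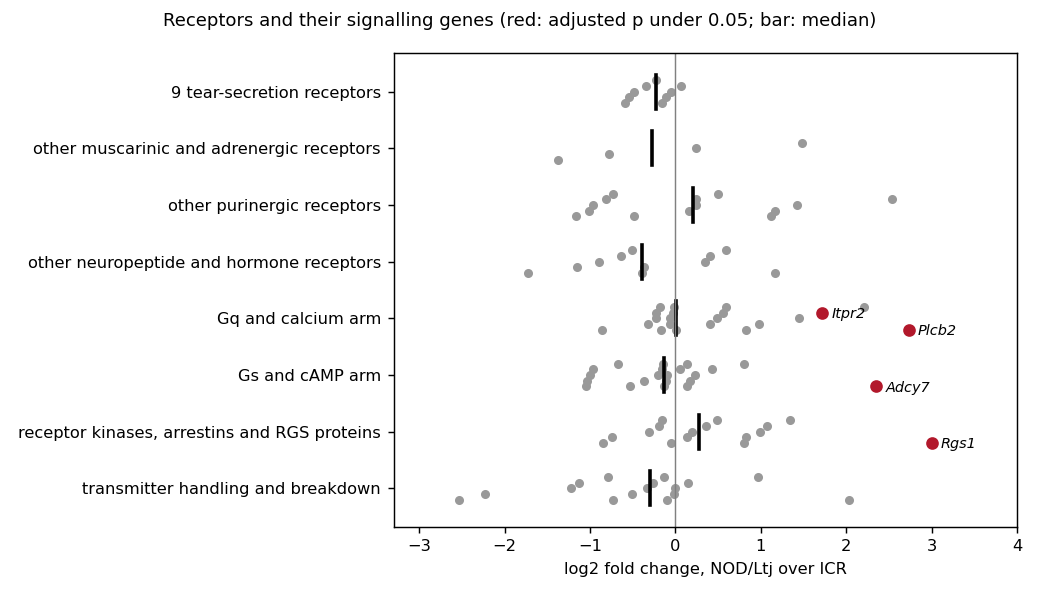
Log2 fold change of NOD/Ltj over ICR for each gene tested (points), by list, with the list median as a black bar. Red points passed an edgeR adjusted p under 0.05: Plcb2, Itpr2, Adcy7 and Rgs1, all higher in NOD/Ltj and none of them among the 9 receptors.

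In the Gq and calcium arm 2 of 21 genes were called higher and 0 lower by edgeR, 5 higher and 1 lower by DESeq2, and 0 by limma-voom. Plcb2, a phospholipase C best known from blood cells, had 3.80, 13.5 and 10.1 CPM in NOD/Ltj 1 to 3 and 1.08, 1.16 and 1.89 CPM in ICR 1 to 3 (log2 fold change 2.73 ± 0.50 SE, edgeR adjusted p = 0.0393). Itpr2, an IP3 receptor that releases calcium from the endoplasmic reticulum, had 12.4, 29.6 and 21.4 CPM in NOD/Ltj and 7.58, 6.14 and 5.54 CPM in ICR (1.72 ± 0.32 SE, log2, edgeR adjusted p = 0.0434). Both were highest in NOD/Ltj 2 and lowest of the NOD/Ltj libraries in NOD/Ltj 1. The T and B cell sums had this order, and so did the salivary gland and adipocyte sums. Gnaq, the Gq α subunit, stood at 21.9 ± 2.37 CPM in NOD/Ltj and 16.6 ± 2.73 CPM in ICR (SD, n = 3 each) and was not called (edgeR adjusted p = 0.420). A further 6 genes had an unadjusted p under 0.05 without being called by edgeR. The protein kinase C genes Prkcd and Prkcb had log2 fold changes of 0.82 and 1.44 (edgeR adjusted p = 0.0763 and 0.0984), and Prkca had −0.86 (adjusted p = 0.0921). The calcium channel gene Orai2 had 2.21 (log2, edgeR adjusted p = 0.119), and the IP3 receptors Itpr3 and Itpr1 had 0.59 and 0.56 (log2, edgeR adjusted p = 0.335 and 0.338). The remaining 13 genes, Gnaq among them, had log2 fold changes from −0.32 to 0.98 with edgeR adjusted p of 0.420 or more. Gnaq and these 6 were named after their values were seen.

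In the Gs and cAMP arm 1 of 21 genes was called higher and 0 lower by both edgeR and DESeq2, and 0 by limma-voom. Adcy7, an adenylyl cyclase prominent in immune cells, had 20.1, 65.2 and 48.9 CPM in NOD/Ltj 1 to 3 and 9.16, 7.01 and 10.1 CPM in ICR 1 to 3 (log2 fold change 2.35 ± 0.42 SE, edgeR adjusted p = 0.0346). Within NOD/Ltj it too had the order shared by the lymphocyte, salivary gland and adipocyte sums. Gnas, the Gs α subunit, stood at 333 ± 45.8 CPM in NOD/Ltj and 284 ± 57.1 CPM in ICR (SD, n = 3 each, edgeR adjusted p = 0.785; named after its values were seen).

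Of 16 receptor kinases, arrestins and RGS proteins, 1 was called higher and 0 lower by edgeR, 3 higher and 0 lower by DESeq2, and 1 higher by limma-voom. Rgs1, which switches off G proteins in activated lymphocytes, had 3.19, 3.71 and 3.76 CPM in NOD/Ltj 1 to 3 and 0.390, 0.291 and 0.647 CPM in ICR 1 to 3 (log2 fold change 3.00 ± 0.39 SE, edgeR adjusted p = 0.0137). Plcb2, Itpr2 and Adcy7 kept their calls only without NOD/Ltj 1 among the fits that left out 1 library, with adjusted p from 0.0566 to 0.193 in the others. Rgs1 lost its call without NOD/Ltj 2 (0.0695) or NOD/Ltj 3 (0.0890), and none of the 4 was called with NOD/Ltj 2 and ICR 3 both left out. Limma-voom called only Rgs1 of the 4. Within NOD/Ltj, Rgs1 did not have the order of the T and B cell sums and was highest in NOD/Ltj 3. The part of lymphocyte RNA in the values of these 4 genes was not tested.

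EdgeR and limma-voom called no gene of the other receptor lists, while DESeq2 called 1 of 11 neuropeptide and hormone receptors lower and 0 of 14 purinergic receptors. Of 14 purinergic receptors tested, P2ry6, a UDP receptor, and P2ry14, a receptor for UDP-sugars, had the lowest p, with log2 fold changes of 1.17 ± 0.38 and 1.12 ± 0.39 (SE, edgeR adjusted p = 0.228 and 0.272). P2ry6 was called higher with epithelial scaling (edgeR adjusted p = 0.0407). Of 11 neuropeptide and hormone receptors tested, Ednrb, the endothelin B receptor, had 4.35 to 5.85 CPM in NOD/Ltj and 7.22, 9.40 and 33.0 CPM in ICR, the last in ICR 1 (−1.73 ± 0.56 SE, log2, edgeR adjusted p = 0.228, DESeq2 adjusted p = 0.0234). Ramp1, the partner of the CGRP receptor, had a log2 fold change of 1.16 ± 0.47 (SE, edgeR adjusted p = 0.347). Of 4 further muscarinic and adrenergic receptors tested, Adrb3, the β3 receptor of fat cells, had a log2 fold change of −1.37 ± 1.25 (SE, edgeR adjusted p = 0.745) from 0 to 29 counts.

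The transmitter synthesis genes Chat, Th and Dbh were nearly absent. The cell bodies of the gland's autonomic nerves lie in ganglia outside it, and whether this bears on the low counts was not tested. Dbh had 0 counts in all libraries, and Chat and Th had at most 3 and 4 counts. Vip itself had 12, 25 and 11 counts in NOD/Ltj and 29, 19 and 28 in ICR (edgeR adjusted p = 0.662). Nerve and Schwann cell markers summed to 48.9 to 52.3 CPM in NOD/Ltj and 58.9 to 66.2 CPM in ICR. Of the 9 such markers tested, edgeR called 0, and 0 had an unadjusted p under 0.05. The groups did not overlap for 3 of the 9 (33.3%, against 20.0% of all genes tested). Of 16 transmitter handling genes tested, edgeR and limma-voom called 0, while DESeq2 called 1 higher and 2 lower. The lowest edgeR p belonged to Tac1, the precursor of substance P (4.36 ± 2.17 CPM in NOD/Ltj and 1.07 ± 0.291 CPM in ICR, SD, n = 3 each, edgeR adjusted p = 0.0830), and to Maoa, which breaks down monoamines (1.99 ± 0.148 CPM in NOD/Ltj and 4.37 ± 1.12 CPM in ICR, SD, n = 3 each, edgeR adjusted p = 0.125). DESeq2 called both, Tac1 higher (adjusted p = 0.00111) and Maoa lower (adjusted p = 0.0108). EdgeR called Tac1 higher with epithelial scaling (adjusted p = 0.0204) and without NOD/Ltj 1 (adjusted p = 0.0390). The enzymes that end the acetylcholine signal, Ache and Bche, had log2 fold changes of −0.51 and −0.13 (edgeR adjusted p = 0.837 and 0.905); these 2, Dbh, Chat, Th and Vip were named after their values were seen.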

How the data were processed

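Per the labels' protocols, polyadenylated RNA was made into dUTP strand-marked libraries and sequenced as 2 × 150 bp pairs. The authors deposited whole-number estimated counts per gene, not scaled between libraries. Fastp, StringTie and edgeR appear, without roles, in the submitters' processing notes. The sources used here give no aligner, build or strand setting, so genes sharing exon bases with a member are named. Genes that overlap Chrm3 or Vipr2 without sharing exon bases are not named. Low values piled up at multiples of 4 (30.4 to 31.7% of values from 1 to 40, where 25% is even). No rounding was needed.

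Symbols and exon lengths came from GENCODE mouse release 21 (55141 of 55401 identifiers matched). All 18537 genes passing filterByExpr, with all 9 receptors among them, were fitted with edgeR 4.0.16 (R 4.3.3; TMM factors 0.809 to 1.26; quasi-likelihood test, two-sided, Benjamini-Hochberg adjustment). SE is the absolute log2 fold change over the square root of F, and intervals use t with the fit's degrees of freedom, unadjusted. DESeq2 1.42.0 and limma-voom (limma 3.58.1) were alternatives, with other scalings and filters, counts divided by 4, a replicate block and leaving out each library. The code for the fits was run on simulated counts with less spread between libraries than these data. That run does not show how well the fits find differences in these receptors. Library pairs differed well beyond counting noise (chi-square per degree of freedom of 94.3 or more), so no pair appeared to be 1 library deposited more than once; this does not show that the samples are independent. Members, lists and tests were chosen with earlier results of these data known. In each pathway list the rule named the called genes or, where none was called, the 2 genes with the lowest p. A result under this rule is not reported here.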

Additional observations from a re-analysis of the deposited data

How the results depend on the processing

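None of the 135 values of the 9 receptors under 16 alternatives was called (lowest adjusted p 0.121, Vipr1 without ICR 1). Apart from Vipr1, the signs of the receptors were not stable. This held for receptors near 0 and also for the scarce Adra1d (−0.59), Vipr2 (−0.54) and Adra1b (−0.35). Scaling to epithelial genes, which moved the median gene by 0.33, gave Chrm1 0.04, Chrm3 0.18, Adra1b 0.15, Adrb1 0.27 and P2rx7 0.12. Adra1b, from −0.35 to 0.15, moved further than the median gene. Limma-voom gave Vipr2 0.65. With ICR 3 and NOD/Ltj 2 both left out for their salivary gland genes, an alternative chosen after seeing the data, Chrm1 was 0.17, Adra1d 0.55 and P2rx7 0.17. Leaving out 1 library gave ranges of −0.52 to 0.04 for Chrm1, −0.37 to 0.70 for Adra1a, −1.62 to 0.02 for Adra1b, −1.07 to 0.06 for Adra1d, −0.77 to 0.38 for Adrb1, −1.42 to 0.38 for Vipr2 and −0.39 to 0.08 for P2rx7. Chrm3 ranged from −0.27 to −0.02 and Vipr1 from −0.58 to −0.44.

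Over all genes, 349 were higher and 67 lower. Leaving out 1 library gave 11 to 406 higher (11 without NOD/Ltj 3, 63 without NOD/Ltj 2, 112 without ICR 2, 120 without ICR 3) and 2 to 118 lower (2 without NOD/Ltj 3, 118 without ICR 1). Epithelial scaling gave 693 higher, DESeq2 898 higher and 285 lower, limma-voom 123 and 20, and the added alternative 2 and 0. The pathway lists had 0 to 7 called higher with 1 library left out (0 without NOD/Ltj 2 or NOD/Ltj 3, 1 without any ICR library, 7 without NOD/Ltj 1), 11 with epithelial scaling, 11 with DESeq2 (and 4 lower), 1 with limma-voom and 0 with the added alternative. With replicate number as a block the counts were 129 higher and 25 lower over all genes and 0 higher in the pathway lists. Same-numbered samples did not deviate together (r = −0.12, −0.149 and 0.072), which gave no sign of pairing by number. With 3 samples per strain this cannot exclude pairing. The cause of these shifts was not tested. Fits on counts divided by 4, or on genes with a mean of at least 1 CPM, left out Adra1b, Adra1d, Adrb1 and Vipr2, and the added alternative left out Vipr2.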
